A study of Mus musculus with 8 samples.

Results

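The genes described here are the 7 genes for subunits of the voltage-gated sodium channels of neurons, namely the alpha subunit genes Scn1a, Scn2a, Scn3a and Scn8a and the beta subunit genes Scn2b, Scn3b and Scn4b. They were chosen by name, as the rows of the deposited table whose Ensembl identifier carries one of these symbols. All 7 were among the 20802 genes of the table and among the 18865 that were abundant enough to be tested.

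The measurements were made in the hippocampus of 8 male C57BL/6 mice at PND28 (postnatal day 28), 1 RNA-sequencing library per mouse. The 4 mice of the Anesthesia group had received ketamine, an NMDA receptor antagonist used as an anesthetic, at 35 mg per kg by intraperitoneal injection on each of 5 days from PND16, and RNA was taken 1 week after the last injection. The 4 mice of the Control group were handled in the same way with saline injections per the deposited protocol, although their sample titles call them untreated. Neither group carried a genetic change, only males were sequenced, and each library mixed all cell types of the dissected hippocampus. For the sodium channel genes the comparison asks whether their mRNA levels, and the balance between them, differed after the repeated anesthesia.

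A sodium channel alpha subunit is a single large protein that forms the voltage sensor, the pore and the inactivation gate, and its brief opening produces the rising phase of the action potential. In the brain Scn2a and Scn8a encode channels of the axon of excitatory neurons, where the Scn8a channel takes over the mature axon initial segment and the nodes of Ranvier. Scn1a encodes the main channel of fast-spiking interneurons, and Scn3a is best known from the embryonic brain. Beta subunits are small single-pass membrane proteins with an immunoglobulin-like domain that modify gating and surface delivery. Scn2b and Scn4b proteins are linked to the alpha subunit by a disulfide bond, whereas the Scn3b protein binds without one.

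Of the alpha genes, 3 lie together on chromosome 2 of the GRCm38 genome, with Scn3a (ENSMUSG00000057182, 65457118 to 65567627, minus strand), Scn2a (ENSMUSG00000075318, 65620771 to 65767447, plus strand) and Scn1a (ENSMUSG00000064329, 66270778 to 66440840, minus strand) in that order. Scn8a (ENSMUSG00000023033) is alone on chromosome 15, from 100869858 to 101045938 on the plus strand. The beta genes are all on the plus strand of chromosome 9, Scn3b (ENSMUSG00000049281) from 40269217 to 40291618, Scn2b (ENSMUSG00000070304) from 45117782 to 45130070 and Scn4b (ENSMUSG00000046480) from 45138395 to 45154152. Scn2b and Scn4b are therefore neighbours.

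To show how alike the alpha genes are, the coding sequence around the ankyrin-binding motif is printed from the GENCODE M21 transcripts, in GRCm38 coordinates. The motif lies in the loop that joins the middle repeats of the alpha subunit, through which ankyrin G, the product of Ank3, holds the channels at the axon initial segment. The stretch is shown because Ank3 is among the partner genes described below. Capitals mark the codons of the motif, and all 72 bases lie within exon 17 of 27 in each gene.
Scn1a, chr2:66317840-66317911, minus strand: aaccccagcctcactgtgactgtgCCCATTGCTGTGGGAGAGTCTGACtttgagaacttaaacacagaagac
Scn2a, chr2:65717760-65717831, plus strand: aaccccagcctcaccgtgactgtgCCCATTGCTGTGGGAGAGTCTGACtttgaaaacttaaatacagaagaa
Scn3a, chr2:65494959-65495030, minus strand: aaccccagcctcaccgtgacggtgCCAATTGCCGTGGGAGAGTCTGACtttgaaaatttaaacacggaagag
Scn8a, chr15:101015987-101016058, plus strand: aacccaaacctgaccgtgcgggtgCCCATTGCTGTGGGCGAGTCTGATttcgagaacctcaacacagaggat
The motif was present once in each gene, and Scn8a was the most different of the 4, with 14 to 17 of 72 bases unlike those of the others, against 4 between Scn1a and Scn2a. Over the whole coding sequence the same division held, since Scn1a, Scn2a and Scn3a shared 81.4% to 83.6% of their aligned bases with each other and Scn8a shared 73.1% to 73.8% with each of them.

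Of the beta genes, the tail of Scn4b is printed because it is known for a role of its own. This short cytoplasmic tail can enter the open pore in place of the inactivation gate and leave again on repolarization, which gives the resurgent current of fast-firing neurons. Capitals mark the codons of that blocking segment, in exons 4 and 5 of 5, so the coordinates also hold an intron.
Scn4b, chr9:45149334-45150417, plus strand: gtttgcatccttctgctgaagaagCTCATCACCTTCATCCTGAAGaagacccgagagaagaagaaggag
The beta genes shared only 40% to 49.5% of their aligned coding bases with one another.

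This likeness bears on how reads can be assigned to a gene. Of the stretches of 31 bases in all annotated transcripts of a gene, 7.29% of those of Scn1a, 9.17% of Scn2a and 9.58% of Scn3a also occurred in another gene, mainly in one another and in Scn9a. For Scn8a the share was 0.528%, for Scn2b 2.22%, for Scn3b 0.341% and for Scn4b 0%. Scn1a and Scn3a are also overlapped on the opposite strand by the low-abundance genes Gm13630 (12 to 34.4 normalized counts per mouse) and Gm13595 (6.4 to 14.1), and Scn2b and Scn3b by Gm10684 and Gm47266, which are not analysed here. The paper names a stranded library kit and the labels another kit, so it is not settled whether reads of such pairs were told apart.

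The values are counts that the authors normalized between libraries, and their totals were between 18702634 and 19231119 per mouse. The step between low values places the reads at approximately 15400000 to 22200000 per library. All 7 markers of hippocampal excitatory neurons examined were present, with summed levels of 23653 to 29535 normalized counts, but the libraries differed in other markers. The summed level of 10 choroid plexus markers lay between 45831 and 103496 normalized counts in Anesthesia replicate 1 and Control replicates 2, 3 and 4, and between 4357 and 9959 in the other 4 mice, with Ttr, the defining gene of that epithelium, at 144.8 to 61582 across the 8 mice. Anesthesia replicate 3 stood apart in Mef2c, a neuronal transcription factor gene chosen after its values were seen, with 9155 normalized counts against 2709 to 4134 in the other 7 mice.

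Levels of different genes are compared as normalized counts per kilobase of the longest annotated transcript. On this per-length scale the mean level over the 8 mice was 1479 ± 85.9 for Scn2a, 823.6 ± 41.5 for Scn2b, 806.4 ± 149.9 for Scn3b and 746.1 ± 78.5 for Scn8a (SD, n = 8 for each). Scn1a followed with 518.2 ± 55.4, Scn3a with 227.9 ± 34.2 and Scn4b with 69.5 ± 15.6 (SD, n = 8 for each). Scn2a was thus the most abundant of the 7 genes per length and Scn4b the least. The 8 values of Scn2a lay wholly above those of Scn2b, those of Scn8a above those of Scn1a, those of Scn1a above those of Scn3a and those of Scn3a above those of Scn4b. Scn2b, Scn3b and Scn8a were not separable, since Scn2b was above Scn3b in only 4 of 8 mice and Scn3b above Scn8a in 5 of 8. When the union of all annotated exons was taken as the length, the order of the genes was kept and Scn2b was above Scn3b in 8 of 8 mice, but the ranges of Scn8a and Scn1a overlapped as well, although Scn8a was higher within each of the 8 mice.

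**Figure D1:**
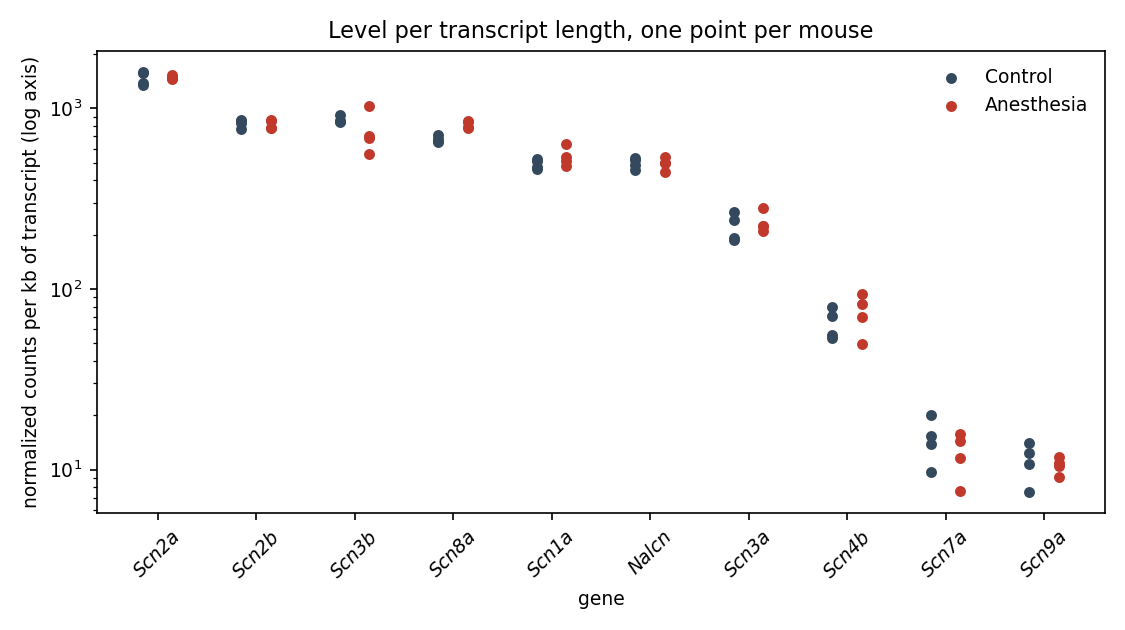
Normalized counts per kilobase of the longest transcript (log axis) of the 7 sodium channel genes and of 3 further family genes, with 1 point per mouse in the Control (dark) and Anesthesia (red) groups, ordered by the mean over all mice. Scn2a lies highest, Scn4b has a mean of 69.5, and Scn7a and Scn9a stay below 25. Scn2b, Scn3b and Scn8a overlap over the 8 mice, but in the Control group Scn8a lies below the other 2.

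None of the 7 genes passed the threshold in the comparison of the groups, which was a limma fit of log2(normalized counts + 1) over all 18865 genes with Benjamini-Hochberg adjustment, and 0 of the 18865 genes did (0% called). The paper, with a DESeq2 count model on the same 8 mice, did report differentially expressed genes at an adjusted p under 0.05. The count of 0 therefore belongs to the limma fit of normalized values and not to the paper's test. In the limma fit 1 member, Scn8a, had an unadjusted p under 0.05, against 8.02% of all genes tested. Scn8a was also the single member whose groups did not overlap, against 5.04% of all genes. The difference between Anesthesia and Control was above 0 for 5 of the 7 members, against 49.2% of all genes. Their median difference was 0.09 on the log2 scale, and that of all genes tested was close to 0. No member was lower without overlap, against 2.23% of all genes, and 1 was higher, against 2.81%. Because the tissue is a mixture, a lower level from fewer cells of a type and a lower level from less RNA per cell cannot be told apart in any of these values.

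**Figure D2:**
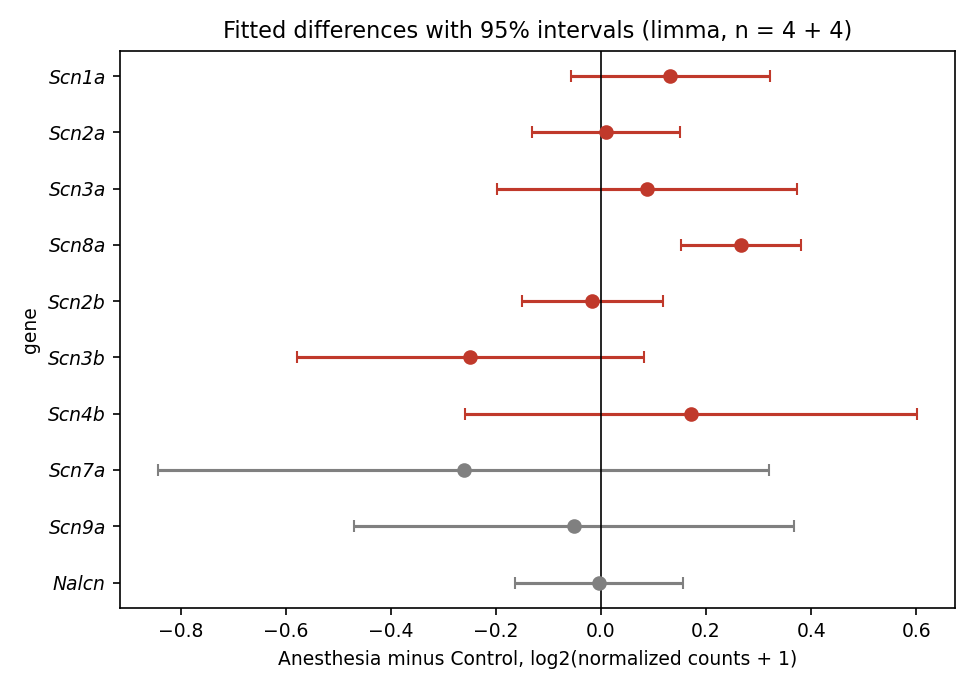
Difference between the Anesthesia and Control groups in log2(normalized counts + 1) with its 95% interval from limma (4 mice per group) for the 7 members (red) and 3 further family genes (grey). The interval of Scn8a, 0.15 to 0.38, lies above 0, and the other 9 intervals include 0.

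Scn8a, the alpha subunit gene of the mature axon initial segment and node, was higher in all 4 Anesthesia mice than in any Control mouse. It had 8960, 9707, 9570 and 9034 normalized counts in Anesthesia replicates 1 to 4. In Control replicates 1 to 4 it had 8165, 7560, 7774 and 7485. The values lay close together in each group, with a coefficient of variation of 4.04% within the Anesthesia group and 3.94% within the Control group. The ratio of the group means was 1.2, and the log2 fold change was 0.27 (SE, the standard error, 0.05, 95% interval 0.15 to 0.38, adjusted p = 0.565 from limma). Its unadjusted limma p of 0.00036 was the 10th smallest of all genes tested. An exact permutation test of this single gene gave a two-sided p of 0.0286, the smallest that 4 mice against 4 can give. Any gene whose groups do not overlap gets this p, so the test only restates the separation, which 5.04% of all genes showed in either direction. Leaving out each mouse in turn kept the log2 fold change between 0.25 and 0.29.

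Scn8a was the member whose difference moved most under correction for base composition and length. Its longest transcript has 50.8% G and C bases, while those of Scn1a, Scn2a and Scn3a have 43.3%, 43.4% and 42.1%. Those of the beta genes Scn2b, Scn3b and Scn4b have 50.5%, 47.8% and 54.5%. When every library was first adjusted by loess for both properties of a transcript, GC content and length, the Scn8a difference was 0.14 on the log2 scale (unadjusted p = 0.0458 and adjusted p = 0.776 from limma). In the same fit Scn2b went from -0.02 to -0.03 and Scn4b from 0.17 to 0.10, smaller shifts at a like or higher GC content. Why Scn8a moved most was not tested. The adjusted p of Scn8a lay between 0.265 and 0.968 over 21 alternative fits, and its unadjusted limma p was under 0.05 in 20 of them.

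Scn2a, the most abundant alpha gene per length and the channel of the developing axon, showed no separation of the groups. Its normalized counts were 13719, 13101, 13140 and 13023 in Anesthesia replicates 1 to 4 and 14269, 14054, 12100 and 12345 in Control replicates 1 to 4. All 4 Anesthesia mice fell inside the range of the Control mice, whose coefficient of variation was 8.55% against 2.41% in the Anesthesia group. The log2 fold change was 0.010 (SE 0.06, adjusted p = 0.974 from limma). The 95% interval ran from -0.13 to 0.15.

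Scn1a, the alpha gene of fast-spiking interneurons, had 4518, 4045, 5357 and 4295 normalized counts in Anesthesia mice against 3999, 4272, 3863 and 4417 in Controls. Anesthesia replicates 1 and 3 were above every Control mouse, and the other Anesthesia mice lay among them. The log2 fold change was 0.13 (SE 0.09, 95% interval -0.06 to 0.32, adjusted p = 0.697 from limma). Without Anesthesia replicate 3, the mouse with the high Mef2c, it was 0.05. Pvalb, which encodes parvalbumin and marks the fast-spiking interneurons in which Scn1a is prominent, had 398.6 ± 31.5 against 410.2 ± 42.8 normalized counts (SD, n = 4 each).

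Scn3a, the alpha gene best known from the immature brain, had 2141, 2698, 1992 and 2126 normalized counts in Anesthesia mice against 2557, 2303, 1828 and 1785 in Controls. The groups overlapped almost throughout, with the highest value in Anesthesia replicate 2 and the lowest in Control replicate 4. The log2 fold change was 0.09 (SE 0.13, 95% interval -0.20 to 0.37, adjusted p = 0.857 from limma) and -0.01 without Anesthesia replicate 2. Dcx, which encodes doublecortin of migrating young neurons, had 847.7 ± 158.8 against 695.3 ± 76 normalized counts (SD, n = 4 each). Among 10 immature neuron markers Dcx had the highest difference, 0.27 on the log2 scale, and 0.15 without Anesthesia replicate 3. Differences of the 10 markers reached down to -0.50, with a median of 0.02 and 7 above 0. Only 1 of the 10 had an unadjusted limma p under 0.05, and that gene was lower.

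Among the beta genes Scn2b was the steadiest. It had 3625, 4035, 3967 and 3624 normalized counts in Anesthesia mice against 3969, 3867, 3579 and 4010 in Controls. The 2 ranges nearly coincided, and the log2 fold change was -0.02 (SE 0.06, 95% interval -0.15 to 0.12, adjusted p = 0.947 from limma). Changes beyond 0.15 in either direction are therefore outside the interval for this gene.

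Scn3b had the most negative difference of the members and the widest spread among Anesthesia mice. It had 2922, 4303, 2319 and 2856 normalized counts in Anesthesia replicates 1 to 4. In the Control group it had 3826, 3474, 3551 and 3522. Of the 4 Anesthesia mice, 3 were below every Control mouse, whereas Anesthesia replicate 2 was above all of them, so the coefficient of variation was 27.3% in the Anesthesia group against 4.41% in the Control group. The log2 fold change was -0.25 (SE 0.15, 95% interval -0.58 to 0.08, adjusted p = 0.676 from limma). It was -0.42 without Anesthesia replicate 2 (adjusted p = 0.50 from limma) and -0.12 without Anesthesia replicate 3, and its adjusted p lay between 0.463 and 0.968 over 21 alternative fits. Prox1, a dentate granule neuron gene chosen after its values were seen, was also highest in Anesthesia replicate 2 with 2397 normalized counts and lowest in Anesthesia replicate 3 with 956.6. With Prox1 as a covariate, added after the data were seen, the log2 fold change of Scn3b was again -0.25 (unadjusted p = 0.0195 and adjusted p = 0.463 from limma). A covariate chosen after the values were seen, with the same extreme mice as Scn3b, narrows the spread by that choice. This p therefore gives no support to a difference in Scn3b.

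Scn4b, the gene of the open-channel blocking tail, was the least abundant member and the one with the widest interval. It had 247.5, 409.3, 470.0 and 349.0 normalized counts in Anesthesia mice against 278.3, 267.6, 352.2 and 394.3 in Controls. Anesthesia replicate 1 was the lowest of the 8 mice and Anesthesia replicates 2 and 3 were the highest. The log2 fold change was 0.17 (SE 0.19, 95% interval -0.26 to 0.60, adjusted p = 0.815 from limma). It moved between 0.04 without Anesthesia replicate 3 and 0.35 without Anesthesia replicate 1.

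**Figure D3:**
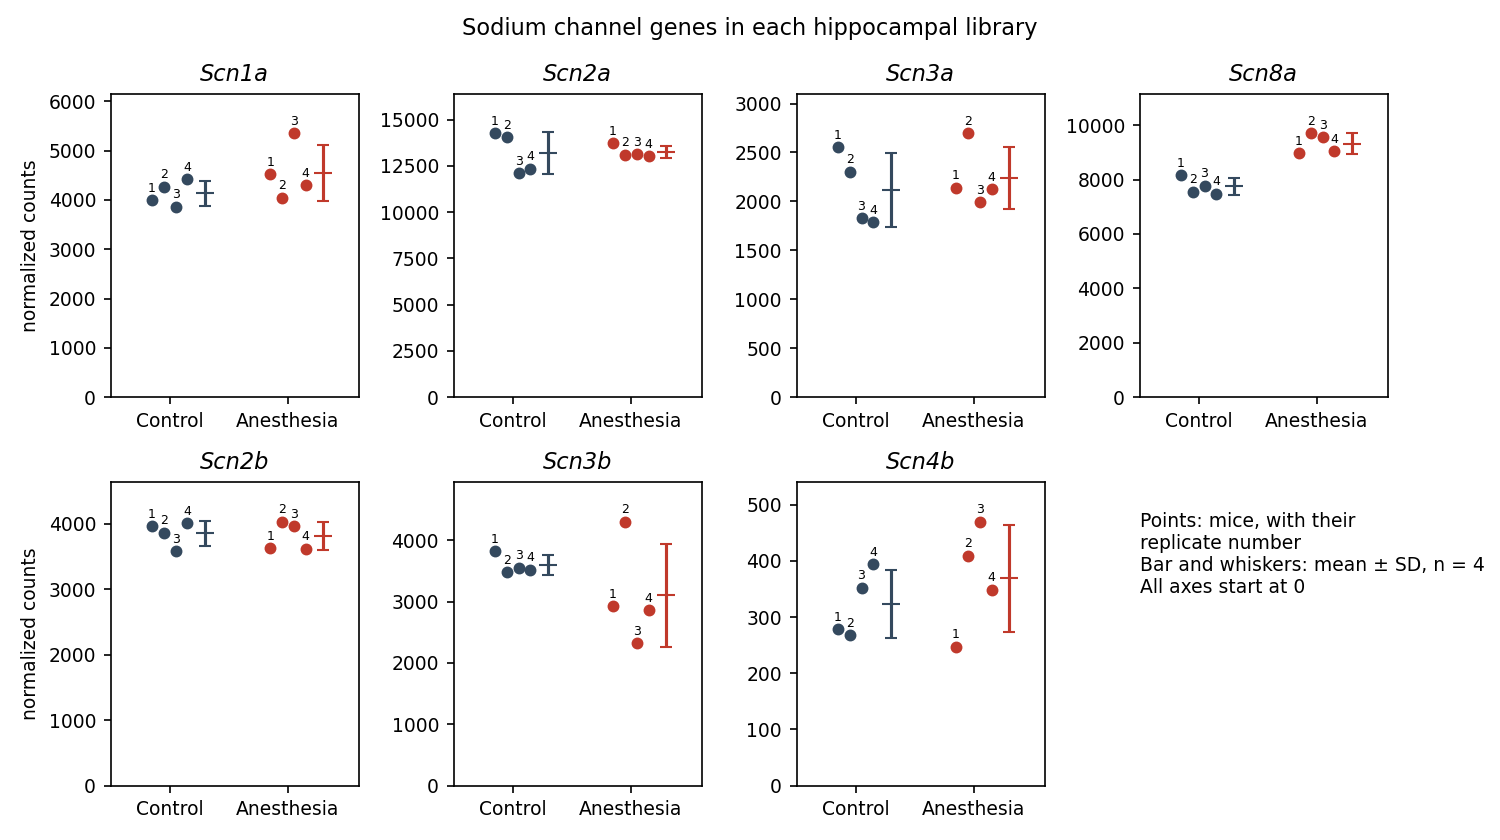
Normalized counts of each of the 7 members in the 4 Control (dark) and 4 Anesthesia (red) mice, with replicate numbers at the points, the mean and SD beside them and every axis starting at 0. The Scn8a values are separated, 7485 to 8165 against 8960 to 9707, while 3 of 4 Anesthesia mice lie low for Scn3b and 1 lies high.

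Ratios of members within a library do not depend on how libraries were scaled. The ratio of Scn8a to Scn2a was 0.653, 0.741, 0.728 and 0.694 in Anesthesia replicates 1 to 4. In Control replicates 1 to 4 it was 0.572, 0.538, 0.642 and 0.606. All 4 Anesthesia mice were above all Control mice, with means of 0.704 ± 0.039 and 0.590 ± 0.045 (SD, n = 4 each) and a difference of 0.26 on the log2 scale. Scn2a itself differed by 0.010 and Scn8a by 0.27. The ratio therefore largely restates the Scn8a difference and is not a second line of evidence. How often ratios of other genes are apart in this way was not counted. The nearest mice were Anesthesia replicate 1 and Control replicate 3, and after the correction for GC content and length they crossed, at -0.607 and -0.601 on the log2 scale, with a difference between the groups of 0.18. The ratios of Scn1a to Scn2a and of Scn3a to Scn2a overlapped between the groups, with mean differences of 0.12 and 0.08 on the log2 scale.

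**Figure D4:**
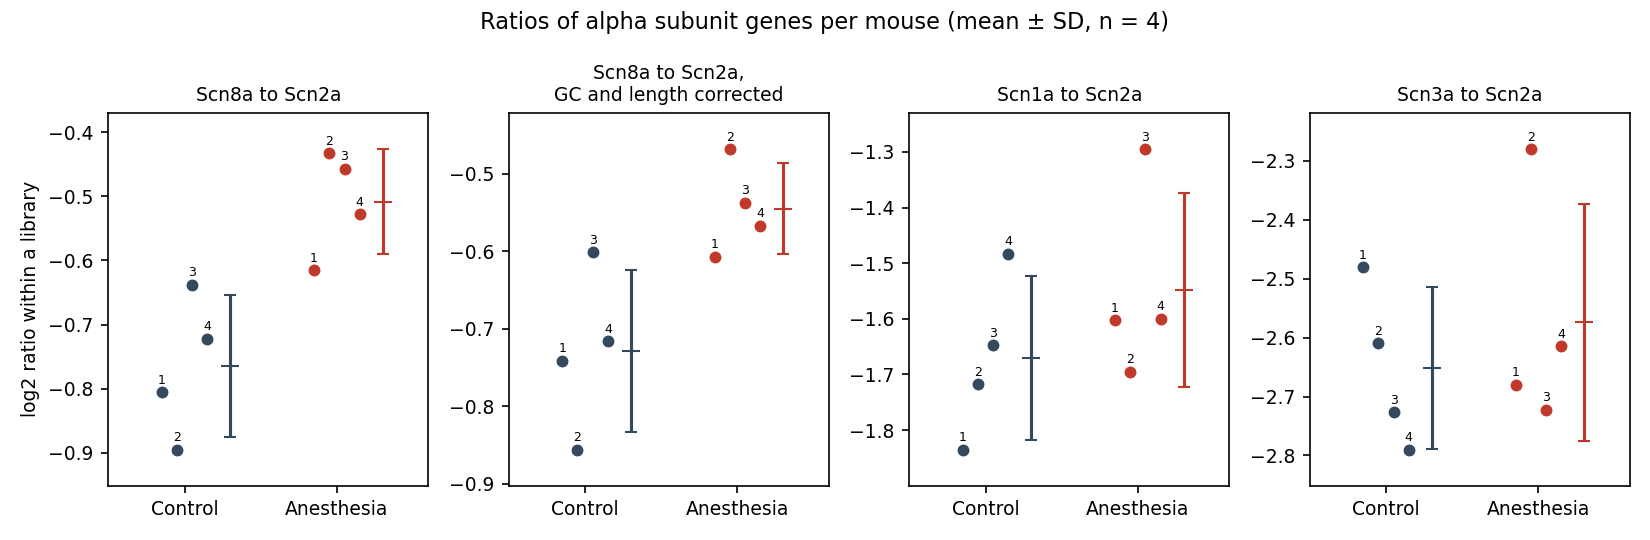
Log2 ratio of Scn8a, Scn1a and Scn3a to Scn2a within each library, by mouse, with the mean and SD of the 4 Control (dark) and 4 Anesthesia (red) mice, the second panel after correction for GC content and transcript length. The axes do not start at 0, and the groups of the Scn8a ratio are apart before the correction (means -0.77 and -0.51) and overlap after it.

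Expressed as a share of the 4 alpha genes per length, Scn2a made up 48.2% ± 1.41 in the Anesthesia group and 51.4% ± 1.26 in Controls (SD, n = 4 each). Scn2a had 49.8%, 47.6%, 46.6% and 48.9% in the Anesthesia mice and 52.3%, 52.7%, 50.4% and 50.3% in the Control mice. These groups did not overlap, and they did not overlap with exon-union lengths or after the correction for GC content and length. Scn8a made up 26.5% ± 0.87 against 23.7% ± 1.31 without overlap, and 26% ± 0.78 against 24.1% ± 1.32 with overlap after that correction. Before it, the nearest mice were only just apart, Anesthesia replicate 1 at 25.42% and Control replicate 3 at 25.31%. Because the shares sum to the whole, a higher share of Scn8a lowers the others, and the normalized counts of Scn2a themselves overlapped between the groups. Scn1a held 17.6% and 17.3% and Scn3a 7.62% and 7.68% in the 2 groups. The alpha genes summed to 3075 ± 70.8 normalized counts per kilobase in the Anesthesia group and 2869 ± 178.8 in Controls (SD, n = 4 each), with overlapping values.

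The beta genes were divided between Scn2b with 50.4% ± 5.3 and 47.1% ± 1.39, Scn3b with 45% ± 6.19 and 49.2% ± 1.47, and Scn4b with 4.55% ± 1.27 and 3.69% ± 0.71 in the Anesthesia and Control groups (SD, n = 4 each). All of these shares overlapped between the groups, and those of the Anesthesia mice were the more spread. Their sum was 1640 ± 230.8 against 1759 ± 61.9 normalized counts per kilobase, also with overlap.

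Of the further family genes, Nalcn, Scn9a and Scn7a were examined in the same way, and Scn4a, Scn10a and Scn11a are not analysed here. Nalcn, which encodes the sodium leak channel that is not gated by voltage, had 3539 ± 269.7 against 3548 ± 248.6 normalized counts (SD, n = 4 each). Scn9a and Scn7a, alpha-type genes known mainly from sensory neurons and from glia and sodium-sensing cells, had 103.9 ± 11.2 against 110.0 ± 27.3 and 90.3 ± 26.2 against 108.2 ± 31.6 normalized counts (SD, n = 4 each). None of these 3 genes had an unadjusted limma p under 0.05, against 8.02% of all genes.

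The partners of the channels were taken as a list of 22 genes for the ankyrin and spectrin scaffold, intracellular FGFs, calmodulins, adhesion molecules and modulators, all of which were tested. Of these, 11 were above 0 and 11 were not, with a median log2 fold change of 0.01. Of the 22, 5 were higher with an unadjusted limma p under 0.05, against 4.75% of all genes, and 0 were lower, against 3.27%. Their groups did not overlap for Ank3, Sptbn4 and Prrt2, 3 of 22 genes against 2.81% of all genes in that direction. The other 2 of the 5, named after their values were seen, were Nfasc, the neurofascin gene of the axon initial segment and node, with a log2 fold change of 0.32 (SE 0.12), and Ank2, the ankyrin B gene, with 0.11 (SE 0.05).

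Ank3, whose product ankyrin G binds the motif printed above, had 13226, 14658, 14980 and 14614 normalized counts in the Anesthesia mice and 12712, 12853, 12521 and 12747 in the Control mice. The Control mice were close together and Anesthesia replicate 1 was the nearest to them. Sptbn4, the beta-IV spectrin gene that ties ankyrin G to actin, had 2501, 2802, 3039 and 2709 in the Anesthesia mice and 2304, 2263, 2252 and 2477 in the Control mice. The log2 fold changes were 0.18 (SE 0.05, adjusted p = 0.595) and 0.25 (SE 0.07, adjusted p = 0.568), both from limma. After the loess correction for GC content and length they were 0.08 and 0.002 (unadjusted p = 0.16 and 0.975 from limma), so the Sptbn4 difference was no longer present and that of Ank3 was smaller. In Ank3 and Sptbn4, as in Scn8a, the lowest Anesthesia mouse was replicate 1.

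Prrt2, whose product dampens sodium channel activity, had 485.2, 441.2, 634.0 and 494.5 normalized counts in the Anesthesia mice against 409.8 to 425.8 in the Control mice. The log2 fold change was 0.29 (SE 0.11, adjusted p = 0.62 from limma). Among the intracellular FGFs, calmodulins, Nedd4 and the casein kinase genes, none had an unadjusted limma p under 0.05, against 8.02% of all genes. For so few genes that is close to the share.

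A list of 18 genes for regulators of channel RNA, transcription and cleavage was tested in full, and 12 were above 0, with a median log2 fold change of 0.05. Of these, 3 genes for RNA-binding proteins of neurons had an unadjusted limma p under 0.05, all of them higher, against 4.75% of all genes in that direction. Rbfox3, the gene of the NeuN splicing factor, had 902.8, 1053, 1159 and 993.6 normalized counts in the Anesthesia mice and 806.4, 874.0, 823.6 and 831.2 in the Control mice, without overlap. Its log2 fold change was 0.30 (SE 0.08, adjusted p = 0.568 from limma). Elavl3, a neuronal Hu protein gene, had 1786 ± 158 against 1556 ± 22.4 normalized counts (SD, n = 4 each), also without overlap, and Rbfox2 had 3537 ± 225.2 against 3186 ± 67, with overlap in Anesthesia replicate 1. The groups did not overlap for 2 of the 18 genes, against 2.81% of all genes in that direction. The log2 fold changes were 0.19 (SE 0.07) and 0.15 (SE 0.06), each with an adjusted p of 0.62 from limma. After the correction for GC content and length Rbfox3 was at 0.24, Elavl3 at 0.13 and Rbfox2 at 0.08.

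Of 11 genes for the sodium pump and sodium-coupled exchangers, which restore the gradient that the channels spend, 7 were above 0 with a median log2 fold change of 0.06. None had an unadjusted limma p under 0.05, against 8.02% of all genes, and none had groups that did not overlap, against 5.04%. With 11 genes a count of 0 is close to these shares. The smallest p-values belonged to Atp1b1, a pump beta subunit gene with a log2 fold change of -0.12 (SE 0.06), Fxyd7, a pump modulator gene with 0.36 (SE 0.19), and Slc8a1, a sodium-calcium exchanger gene with -0.10 (SE 0.06). Fxyd7 rested on Anesthesia replicate 3 and was 0.15 without it.

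Of the 13 marker lists for cell types, neighbouring tissue and nuclear RNA, 1 had a summed level whose groups did not overlap. The 5 nuclear-retained RNAs, such as Malat1 and Meg3, summed to 332173, 385149, 345485 and 372655 normalized counts in the Anesthesia mice and 306720, 306592, 331683 and 313510 in the Control mice. Like Scn8a, this sum was higher in every Anesthesia mouse, with Anesthesia replicate 1 the lowest of them. Of the 5 RNAs 4 were above 0, with log2 fold changes of 0.47 for Miat, 0.27 for Meg3 and 0.17 for Malat1. The groups did not overlap for Miat, 1 of the 5, against 2.81% of all genes in that direction. With the mean log2 level of this list as a covariate, added after the data were seen, the log2 fold change of Scn8a was 0.26 (unadjusted p = 0.0237 and adjusted p = 0.968 from limma), while that of Scn3b turned to 0.31, that of Scn1a to -0.08 and that of Scn4b to -0.28. In the same fit Prrt2 turned to -0.06 and Elavl3 to -0.03, Fxyd7 turned to -0.30, and Sptbn4 was at 0.11. Because the summed level of the list was itself apart between the groups, this fit cannot cleanly separate the group from the covariate. That holds for the value of Scn8a as for those that turned. The share of nuclear RNA was not measured apart from these genes, and its part in the results was not tested further.

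The choroid plexus list, high in 1 Anesthesia and 3 Control mice, was below 0 in all 10 genes, with a median log2 fold change of -1.64. Of the 10 genes 0 had an unadjusted limma p under 0.05, against 8.02% of all genes, and with 10 genes a count of 0 is close to that share. With the mean log2 level of the choroid plexus list as a covariate the log2 fold change of Scn8a was 0.23. That of Scn2a was -0.02 and that of Scn3a -0.02. The 10 interneuron markers summed to 9724 to 11321 normalized counts in Anesthesia mice and 10952 to 11324 in Controls. The 10 immature neuron markers summed to 8949 to 10036 and 8714 to 9788, so both lists overlapped beside Scn1a and Scn3a. The 7 excitatory neuron markers summed to 24528 to 29535 and 23653 to 25598, also with overlap. Of these 7, 5 were above 0, against 49.2% of all genes, with a median log2 fold change of 0.15. That median was 0.02 without Anesthesia replicate 2 and 0.04 with the choroid plexus covariate. The groups of 1 of the 7 did not overlap, against 2.81% of all genes in the higher direction. The 8 astrocyte markers summed to 100742 to 113297 normalized counts in Anesthesia mice and 98061 to 103861 in Controls, with overlap. Their median log2 fold change was -0.10, with 3 of the 8 above 0. The groups of 2 of the 8 did not overlap in the lower direction, against 2.23% of all genes. The part of the markers of any of these cell types in the Scn8a difference was not tested.

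**Figure D5:**
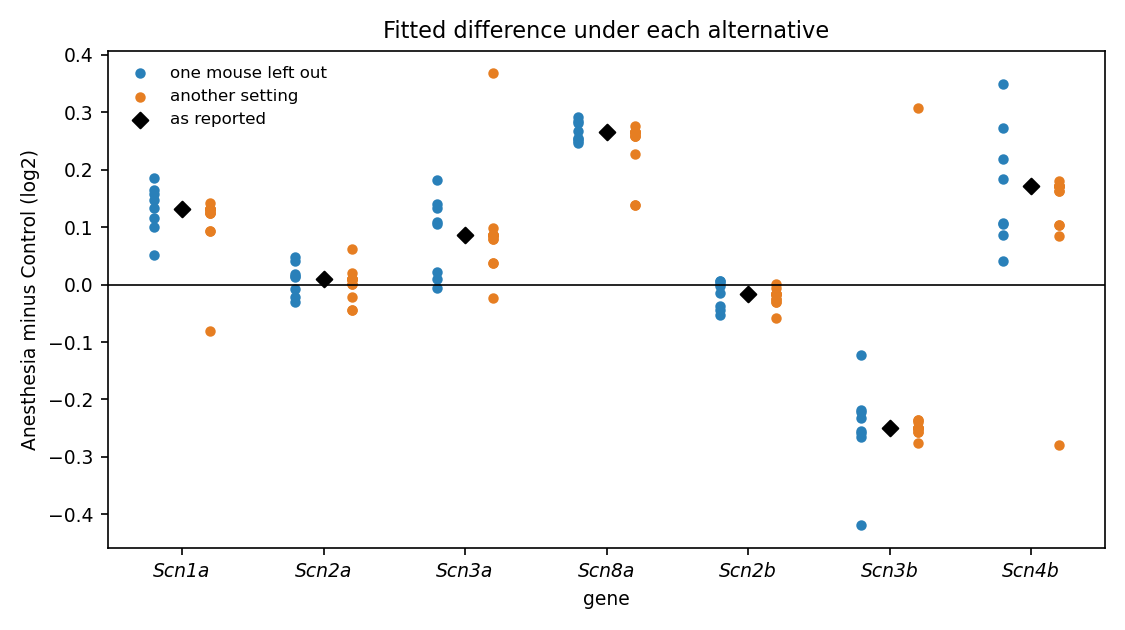
Log2 difference between the Anesthesia and Control groups for each of the 7 members as reported (black), with 1 mouse left out (blue, 8 fits) and under other settings (orange, 13 fits). Scn8a stays between 0.14 and 0.29, Scn2a and Scn2b stay near 0, and the isolated orange points of Scn3b (0.31) and Scn4b (-0.28) are the fit with nuclear-retained RNA as a covariate.

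Among the genes whose levels followed Scn8a most closely over the 8 mice, of 12249 genes with a mean of at least 100 normalized counts, were Tspoap1 and Ccdc85c, with Pearson correlations of 0.968 and 0.959 of log2 levels and Spearman correlations of 0.929 and 0.905. For Scn3a the closest were Ap3b2, Crmp1 and Ntrk3, with Pearson correlations of 0.948, 0.946 and 0.946. For Scn4b the closest were Ldlrad4, Carmil2 and Cdk19, with 0.962, 0.958 and 0.955. All points of such a correlation share the libraries, the groups and the scaling, and the highest of 12249 values are high by selection, so these are descriptions of 8 mice. Of the 3 companions of Scn3a, Crmp1, the gene of a collapsin response mediator, had 2408 normalized counts in Anesthesia replicate 2 and 2342 in Control replicate 1, the same mice in which Scn3a was highest.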

How the data were processed

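Hippocampal RNA of 8 male mice, 4 Anesthesia and 4 Control, was sequenced. The authors quantified transcripts with Salmon (version 1.1.0 per the submitters' processing notes) on GRCm38, summarised them per gene and normalized the counts with DESeq2 (version 1.30.1), so the deposited table holds a normalized signal per gene and mouse, 1 column for each of the 8 mice with 0 columns left over. Between 45.9% and 68.3% of low values lay within 0.1 of whole reads, too few to recover the read counts, and count models were therefore not used. The annotation release is not given in the sources used here. Symbols and coordinates came from GENCODE M21, which held 20784 identifiers and lacked 18.

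Values were analysed as log2(value + 1), a scale that understates the change of low genes, with limma (version 3.58.1, R version 4.3.3) with a mean-variance trend and no covariate, over 18865 genes with a mean of at least 10. The 1937 genes under that mean were left out. P-values were adjusted by Benjamini-Hochberg over all genes tested, with a threshold of 0.05. Groups and replicate numbers came from the sample titles, and the p-values measure the spread between mice. The SD of log2 ratios between any pair of libraries was 0.524 to 0.745, so none was a copy of another. The scripts were tested on simulated data. Coding sequences were aligned with mafft (version 7.526).

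The members, lists and tests were chosen with earlier results of these data known. Named genes are all members, other family genes in the table, from each pathway list those whose groups did not overlap and the 3 with the smallest p, the markers Pvalb, Dcx and Ttr, and the 3 genes most correlated with Scn8a, Scn3a and Scn4b. A few genes covered by these criteria are not reported here. Nfasc, Ank2, Mef2c, Prox1, Malat1, Meg3 and Miat were named after their values were seen. Alternatives were a pseudocount of 0.1, no filter, a mean of at least 100, upper quartile and column total scaling, voom, a robust spread, a replicate block, loess correction for GC content and length with and without the block, a choroid plexus covariate and each mouse left out. Covariates from Prox1 and nuclear-retained RNA, and the correction of the ratios, were added after seeing the data.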

Additional observations from a re-analysis of the deposited data

Results flagged for a closer look

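In 64 groups of 4 mice examined for a single mouse far from the others, 3 were found, where chance alone gives about 1 in 20 (3.2). Scn2a in Anesthesia replicate 1 was 13719 normalized counts, against 13023 to 13140 in the other 3 Anesthesia mice, a gap that is wide only beside their narrow range and that lies within the Control range. Fxyd7 had 356.7 normalized counts in Anesthesia replicate 3 against 183.1 to 211.5 in the other Anesthesia mice. Ttr had 53003 in Anesthesia replicate 1 against 182.2 to 2679, and the same mouse was high in the whole choroid plexus list.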

How the results depend on the processing

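No alternative called a member, and 0 to 2 of all genes were called with each mouse left out (2 without Control replicate 1). Of 22 single-gene differences, 6 kept their direction in all 13 other settings and 8 fits with a mouse left out, namely those of Scn8a, Ank3, Sptbn4, Rbfox3, Rbfox2 and Atp1b1, although Sptbn4 fell to 0.002 with the GC and length correction. The 1 member with an unadjusted p under 0.05 became 0 with the GC and length correction together with the replicate block. The count became 3 (Scn8a, Scn1a and Scn3b) without Anesthesia replicate 2 (range 1 to 3 with a mouse left out). The same 3 were under 0.05 with Prox1 as a covariate, a gene chosen after its values were seen. Over all genes 1513 became 848 with the correction and the block, 863 with the choroid plexus covariate and 809 with the nuclear-retained RNA covariate. By contrast, this number rose to 1891 with the Prox1 covariate. All of these settings use further degrees of freedom, and why the numbers moved was not tested. With the nuclear-retained RNA covariate the sign turned for Scn1a (-0.081), Scn2b (0.002), Scn3b (0.307), Scn4b (-0.28), Scn7a (0.262), Prrt2 (-0.06), Elavl3 (-0.029), Fxyd7 (-0.304), Slc8a1 (0.003), Dcx (-0.12) and Ttr (0.154). With the choroid plexus covariate it turned for Scn2a (-0.021), Scn3a (-0.023), Scn9a (0.044), Nalcn (0.003) and Ttr (0.652). It also turned for Scn2a with the GC and length correction (-0.045, with the block too) and for Nalcn with upper quartile scaling (0.006). The cause was not tested. With a mouse left out, signs turned within ranges of -0.031 to 0.049 for Scn2a, -0.006 to 0.183 for Scn3a, -0.052 to 0.007 for Scn2b, -0.227 to 0.07 for Scn9a, -0.048 to 0.046 for Nalcn and -0.071 to 0.031 for Pvalb. Scn7a has no value at a mean of at least 100.

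With the replicate number of the titles as a block, 0 members were called, and Scn8a remained at 0.266 (unadjusted p = 0.00277 and adjusted p = 0.782 from limma). The numbers name the mice, and the labels do not say whether same-numbered mice belong together. Their deviations over all genes correlated at -0.242, -0.109, -0.182 and 0.0194, which cannot settle this, since a shared origin need not show in them. With the block Scn8a had an unadjusted p of 0.0672 (limma) after the GC and length correction. Depth is known only approximately, and with 4 mice per group the intervals of Scn3b and Scn4b leave differences as large as 0.58 and 0.60 on the log2 scale within range.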
